A study of Mus musculus with 8 samples.

Results

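Oxidative phosphorylation is carried out in the inner mitochondrial membrane by proteins of which most are encoded in the nucleus and 13 in mitochondrial DNA. The genes described here were the protein-coding genes of the count table whose symbols start with Ndufa, Ndufb, Ndufc, Ndufs, Ndufv, Uqcr, Cox4 to Cox8, Atp5, Sdha, Sdhb, Sdhc or Sdhd, together with the 13 mitochondrial genes. This gave 110 of 43629 genes, 97 nuclear and 13 mitochondrial, and 103 of the 110 passed the filter on low counts. The prefixes also took in 12 assembly factors (Ndufaf and Sdhaf genes), Cox7a2l, a factor of respiratory supercomplexes, and Atp5s, which are kept apart from the 83 nuclear subunits below.

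The 8 RNA-seq libraries came from follicular B cells sorted from mouse spleen, a resting population that recirculates through lymphoid follicles. Per the labels the gate was positive for B220, CD93, CD21 and CD23. CD93 is usually taken to mark immature B cells rather than follicular ones, so the gate as written does not match the name of the cells. Cd93 itself was at 10.53 CPM (counts per 1000000, on library sizes scaled by TMM factors) in controls and 11.3 in the GFP-ZFP36L1 group. All 8 libraries carried the Rosa26GFPZFP36L1 allele, and 4 of them, the GFP-ZFP36L1 group, also carried CD23cre/+, a Cre recombinase driven from the gene of a mature B cell surface receptor. The other 4, the controls, had the allele without Cre, so the presence of Cre and expression of the transgene cannot be told apart in this design. ZFP36L1 recognises AU-rich stretches in the 3' UTRs of mRNAs and speeds their decay, and the comparison asks what differs when its GFP fusion is expressed. The sample titles carry a number from 1 to 8, odd in the controls (mean 4) and even in the GFP-ZFP36L1 group (mean 5), to which the labels give no meaning. Libraries are named by this number below. Nothing in the labels tells whether each library is a separate animal, so the p-values reflect library-to-library spread only, which may be technical.

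The libraries held 38947758 to 51024233 counts. All 7 B cell markers were detected and their summed level was 10913 to 12102 CPM in controls and 9965 to 11496 in GFP-ZFP36L1 libraries. Of them Pax5 was called lower in the GFP-ZFP36L1 group (edgeR quasi-likelihood, Benjamini-Hochberg adjusted p = 0.0405). The 6 macrophage and monocyte markers summed to 9.73 to 11.4 and 8.61 to 10.04 CPM, with only Itgam called, higher (1.96 against 3.41 CPM, edgeR adjusted p = 0.0395). Csf1r was also higher (0.333 against 0.365 CPM). Adgre1 (3.21 against 1.73 CPM), Cd68 (4.10 against 3.30), Lyz2 (0.756 against 0.687) and Cd14 (0.0240 against 0.0118) were lower and not called. The 8 T cell markers summed to 31.8 to 34.8 and 33.8 to 34.9 CPM, nearly all of it Lck, with Cd3e at 0 in every control. Granulocyte markers reached at most 0.0975 CPM, and the 6 erythroid markers summed to 2.45 to 13.4 and 3.66 to 8.43 CPM. Total Zfp36l1 signal was 547 CPM in controls and 439 in the GFP-ZFP36L1 group (log2 fold change -0.32 ± 0.07 SE, edgeR quasi-likelihood, Benjamini-Hochberg adjusted p = 0.0348). The gene that the transgene adds to was therefore lower, not higher, in the libraries labelled as expressing it, and the count table does not separate transgene from endogenous reads.

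Complex I (NADH dehydrogenase) and complex II (succinate dehydrogenase) feed electrons into the chain, and complex III (cytochrome bc1) and complex IV (cytochrome c oxidase) pass them to oxygen. The chain builds a proton gradient, which complex V (ATP synthase) uses to make ATP. Mitochondrial DNA encodes core subunits of complexes I, III, IV and V, whereas complex II is wholly nuclear. The nuclear and mitochondrial genomes are transcribed by separate polymerases, and subunits from both must be brought together for assembly.

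ZFP36 family proteins bind the heptamer UAUUUAU, written TATTTAT in DNA. It was present on the sense strand in the 3' UTR of the principal transcript in 6 of 97 nuclear genes of the group (6.19%), against 3042 of 10899 tested genes with a 3' UTR (27.9%). These 3' UTRs were short, with a median of 186 nt against 1004 nt. The 6 genes are shown because they are the members that hold the letters the expressed protein is known to bind. Each sequence is 5' to 3' on the transcript strand of GRCm38, with the heptamer in capitals, and the first site is given where there are several. In Sdhc the second of 2 sites overlaps the first and is not marked.
Cox7a2, chr9:79755437-79755465, minus strand: ttggggatcaaTATTTATtgatgtgtatt
Ndufs4, chr13:114288692-114288720, minus strand: cagctgtgcacTATTTATagtccatggat
Ndufv2, chr17:66078909-66078937, minus strand: ggtaaaagcatTATTTATaaaaagaaaag
Sdhaf3, chr6:7039212-7039240, plus strand: ttgcaatgacaTATTTATttgctgtgtgg
Sdhc, chr1:171127631-171127659, minus strand: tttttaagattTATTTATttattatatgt
Uqcrc2, chr7:120659299-120659327, plus strand: cagtcagcaagTATTTATtaaatgcttta

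The log2 fold changes of these 6 genes (GFP-ZFP36L1 over control) were -0.24 ± 0.14 for Cox7a2, -0.26 ± 0.10 for Ndufs4, -0.07 ± 0.07 for Ndufv2, 0.07 ± 0.09 for Sdhaf3, 0.06 ± 0.06 for Sdhc and -0.07 ± 0.07 for Uqcrc2 (SE, n = 4 each). None of the 6 had an adjusted p under 0.05 in the comparison of the groups. The match of letters is a description and not a measured binding site.

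Levels between genes are compared as CPM per kilobase of the principal transcript, in controls. Apart from mt-Nd6 and mt-Nd4l, every mitochondrial gene stood above every nuclear member. mt-Co1, the catalytic core of complex IV, was highest at 9121 ± 539.8 CPM per kb (SD, n = 4), followed by mt-Co2 at 7287 ± 714 and mt-Co3 at 6936 ± 833, which did not differ beyond their SDs. Next came mt-Atp6 at 3896 ± 548 and mt-Cytb, the core of complex III, at 3301 ± 184, then mt-Atp8 at 2880 ± 402 and mt-Nd1 at 2493 ± 75.2. Neighbours among these 4 differed by less than the sum of their SDs. mt-Atp8 and mt-Atp6 overlap by 43 bp on the same strand, and the effect of this on their levels was not tested. The other complex I genes mt-Nd2, mt-Nd4, mt-Nd3 and mt-Nd5 had 1694 ± 73.2, 1508 ± 95.6, 1404 ± 129 and 1313 ± 43.0 CPM per kb, and neighbours among the last 3 also differed by less than the sum of their SDs. mt-Nd6, the only member on the opposite strand of mitochondrial DNA, had 34.4 ± 9.11.

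The thirteenth mitochondrial gene, mt-Nd4l, had 0 to 5 counts per library and 13 in all, and was not tested. It overlaps mt-Nd4 and has an identical nuclear copy, Gm10222, which also held few counts, and the part of either in its low count was not tested. Libraries were made with a kit that selects mRNA, per the labels, and its effect on the order of levels was not tested either.

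Among nuclear genes the highest levels per kilobase were those of Uqcrh, a hinge protein of complex III, at 291 ± 17.8, Atp5b, the catalytic beta subunit of ATP synthase, at 267 ± 8.62, and Atp5e, its epsilon subunit, at 234 ± 34.9 CPM per kb. Cox7a2l (211 ± 14.2) and Cox4i1 (206 ± 22.1) came next and did not differ beyond their spread. Ndufa3 (138 ± 16.5) led complex I, Sdha (92.3 ± 1.74), the flavoprotein of succinate dehydrogenase, led complex II, and Sdhaf2 (25.05 ± 1.80), which helps attach its flavin, led the assembly factors. The median was 59.5 CPM per kb over tested nuclear subunits, 9.13 over assembly factors and 9.65 over all tested genes.

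In the isoform families of complex IV, 1 member carried nearly all of the signal once Cox7a2l, the supercomplex factor, was set aside. Cox7a2l had a control mean of 227 CPM, above its relative Cox7a2. Cox4i1, Cox6a1, Cox6b1, Cox7a2 and Cox8a, the isoforms found in most tissues, had control means of 158, 64.5, 105, 52.9 and 71.4 CPM. Cox7b and Ndufa4 likewise had 59.6 and 75.2 CPM. Their relatives with more restricted expression, such as in muscle, lung or testis, were close to absent: Cox4i2, Cox7b2, Cox8b, Cox8c and Ndufa4l2 had 0 counts in all 8 libraries, where a count of 3, taken as the limit that 0 allows, corresponds to 0.0603 to 0.0737 CPM, and Cox6a2 had 1 count in all. Cox7a1 had 0.199 ± 0.0710 CPM and Cox6b2 0.522 ± 0.186. The limit covers counting error only. The 3 genes for the c subunit of the ATP synthase ring encode the same mature protein, and Atp5g3 had the highest level at 118 ± 12.1 CPM per kb, with Atp5g2 at 41.3 ± 5.10 and Atp5g1 at 9.58 ± 1.103. The rank of Atp5g1 depends on its principal transcript of 4715 nt, against 731 nt for Atp5g2 and 723 nt for Atp5g3. Without division by length, Atp5g3, Atp5g1 and Atp5g2 had 85.3, 45.2 and 30.2 CPM. The value of Atp5g2 is uncertain because its copy Gm10231, identical over 441 nt, held 150% of its count. Copies of Atp5l (Gm10221) and Uqcrb (Gm2962) held 19.0% and 8.36% of their counts.

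In the comparison of the groups, by the quasi-likelihood test of edgeR, p-values were adjusted by Benjamini-Hochberg over all 13035 genes tested, and an adjusted p under 0.05 was called. No member was called in either direction, 0 of 91 nuclear and 0 of 12 mitochondrial genes, where 3.12% of all tested genes were called and 1.30% were called lower. DESeq2 also called 0, and limma voom called 2, both nuclear and lower. Over the whole table DESeq2 called 383 genes lower and limma voom 491. At an unadjusted p under 0.05, 10 nuclear genes were lower, where 7.87% of all genes were lower at that level, and 1 was higher, where 9.47% of all genes were. None of the 12 mitochondrial genes reached it. The authors' deposited table called 875 genes and 0 members at an adjusted p under 0.05, with 88 members at a negative and 17 at a positive log2 fold change. In bulk RNA, fewer cells of a type and less RNA per cell cannot be told apart.

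The log2 fold changes were small and mostly negative. Of 91 nuclear genes 79 were negative, with a median of -0.09, and of 12 mitochondrial genes 9 were negative, also with a median of -0.09, while the median over all tested genes was -0.0067. Short transcripts leaned the same way over all tested genes. Their median was -0.086 under 700 nt and -0.053 at 700 to 1400 nt, against -0.110 and -0.086 for nuclear members of those lengths. Above 1400 nt it was 0.0052 against -0.067. Of 94 cytosolic ribosomal genes 86 were negative (median -0.13), and of 76 mitochondrial ribosomal genes 65 (median -0.06). All 16 nuclear complex V subunits and all 8 complex III subunits were negative, with medians of -0.10 and -0.13. Of 37 complex I subunits 35 were negative (median -0.09), and of 12 complex IV subunits 10 (median -0.16). Complex II subunits had a median of -0.03. The 12 assembly factors had 6 negative values and a median of -0.0076, close to the value for all genes. These counts describe genes that share libraries and are not independent of each other. With the title number as a further term, the nuclear median was -0.04 with 72 of 91 negative, and with a trend in transcript length and GC content removed it was -0.03 with 63 of 91 negative. The nuclear median was -0.03 without library 1 (66 of 91 negative), -0.04 without library 8 (64 of 91) and -0.14 without library 2 (80 of 91). The mitochondrial median was -0.04 without library 1 and -0.05 without library 8.

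**Figure D1:**
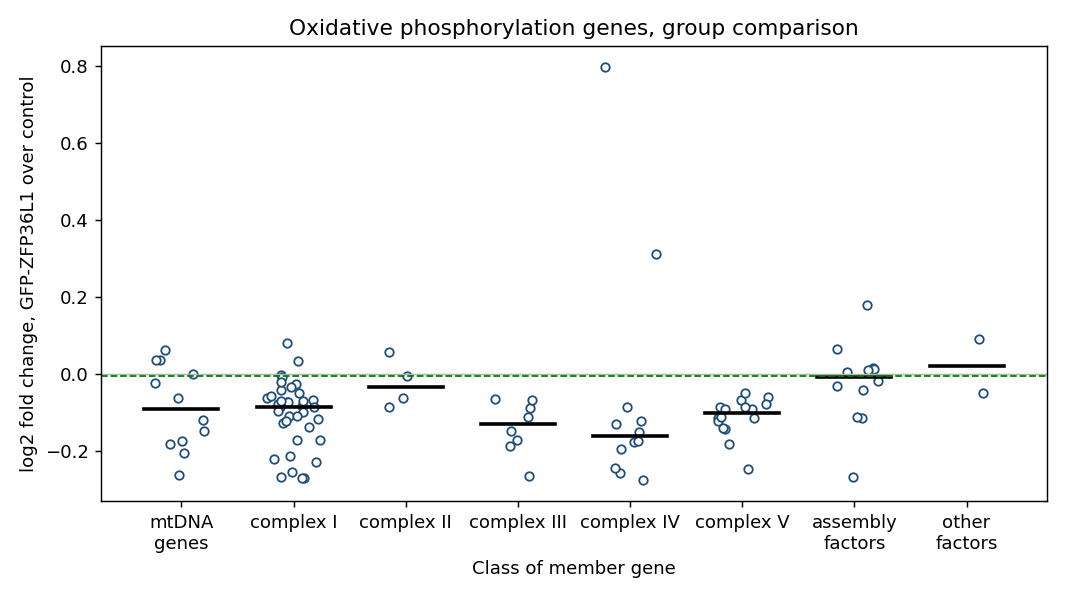
Log2 fold change of GFP-ZFP36L1 over control (vertical axis) for the 103 tested genes, 1 open circle a gene, by class along the horizontal axis (mitochondrial DNA genes first). Black bars are class medians and the dashed line is the median of all tested genes (-0.0067). No gene was called, and the circle far above the rest is Cox6b2 at 0.80. Other factors are Cox7a2l and Atp5s.

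Atp5b had the smallest p among the members. Its level in controls 1, 3, 5 and 7 was 532, 512, 506 and 492 CPM, and in GFP-ZFP36L1 libraries 2, 4, 6 and 8 it was 509.9, 415, 415 and 380.4 CPM. Libraries 4, 6 and 8 lay below every control, whereas library 2 lay among the controls. The means were 511 ± 16.5 and 430.2 ± 55.6 CPM (SD, n = 4 each), a log2 fold change of -0.25 ± 0.08 (SE) and an edgeR quasi-likelihood p, Benjamini-Hochberg adjusted, of 0.138. Atp5b was called with limma voom, with the title number as a term and without library 2 (log2 fold changes of -0.27, -0.21 and -0.33). Atp5f1, which forms the peripheral stalk and had the next smallest p in complex V, had a log2 fold change of -0.14 ± 0.08.

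In complex I, 2 genes had groups that did not overlap. Ndufs1, the largest core subunit, with iron-sulphur clusters, had 86.7, 89.7, 93.6 and 89.4 CPM in controls and 83.1, 79.5, 82.1 and 85.2 CPM in GFP-ZFP36L1 libraries. All 4 were below the lowest control, with a narrow gap (log2 fold change -0.12 ± 0.05 SE, edgeR's quasi-likelihood test, Benjamini-Hochberg adjusted p = 0.175). Ndufa7, an accessory subunit, had 56.1, 48.1, 45.7 and 45.8 CPM against 45.2, 41.2, 44.8 and 37.5 CPM. The highest GFP-ZFP36L1 library lay just under the lowest control (log2 fold change -0.21 ± 0.08 SE, edgeR adjusted p = 0.181). Over the 103 members, 2 were lower without overlap and 0 were higher, where 4.98% and 6.24% of all tested genes were.

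Ndufs4, an accessory subunit needed for a stable complex I, which holds the heptamer shown above, had 42.0, 37.0, 35.6 and 30.8 CPM in controls and 34.7, 29.9, 30.6 and 26.6 CPM in GFP-ZFP36L1 libraries. The groups overlapped, since control 7 lay below library 2. In complex III, Uqcrfs1, the Rieske iron-sulphur protein, had 51.8, 41.9, 43.1 and 42.2 CPM against 44.3, 36.4, 37.7 and 30.4 CPM. Library 2 lay above 3 of the controls, and the log2 fold change was -0.27 ± 0.11 (SE) with an edgeR adjusted p of 0.223. Uqcrb, the other complex III gene named for its small p, had -0.19 ± 0.09.

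In complex IV the smallest p belonged to Cox6b2, the testis isoform of a subunit that bridges the dimer, at a trace level. It had 0.668, 0.261, 0.642 and 0.516 CPM in controls and 0.576, 0.821, 0.992 and 1.22 CPM in GFP-ZFP36L1 libraries. Libraries 4, 6 and 8 were above every control and library 2 was not (log2 fold change 0.80 ± 0.31 SE, edgeR adjusted p = 0.203). Cox5b, a zinc-binding subunit, had 56.4 ± 5.08 against 49.9 ± 4.66 CPM (SD, n = 4 each). Cox8a and Cox6a1, small subunits of complex IV, varied widely among GFP-ZFP36L1 libraries. Cox8a had 75.6, 66.2, 68.2 and 75.5 CPM in controls and 77.3, 45.7, 62.6 and 50.2 CPM in GFP-ZFP36L1 libraries. Library 2 was the highest of all 8, while the other GFP-ZFP36L1 libraries were below every control. Without library 2, the members called lower were Atp5b, Uqcrfs1, Cox6a1 and Cox8a, 4 of 91 nuclear members. In that setting 412 genes were called lower over the whole table, against 169 of 13035 with all libraries.

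Complex II also serves the citric acid cycle. Sdha had 273, 268, 269 and 261 CPM in controls and 269, 264, 246 and 245 CPM in GFP-ZFP36L1 libraries, with libraries 6 and 8 below every control. Sdhb, the iron-sulphur subunit, had 64.9 ± 5.27 against 61.2 ± 7.30 CPM (SD, n = 4 each). The membrane anchors Sdhc and Sdhd had 45.1 ± 2.37 against 46.9 ± 3.39 and 55.5 ± 4.68 against 55.3 ± 4.69 CPM. All 4 overlapped between groups. Among assembly factors, Ndufaf3 had the smallest p, at 13.5 ± 2.01 against 11.2 ± 1.73 CPM, and was not called.

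The mitochondrial genes did not share a direction across complexes. The 6 genes of complexes III, IV and V had a median log2 fold change of -0.16 between the groups. In 5 of them it was -0.12 or lower, while mt-Atp8 was at -0.0013 ± 0.12 (SE) and changed sign in 12 of 19 alternatives. mt-Atp8 overlaps mt-Atp6 by 43 bp on the same strand, so their counts may not be separate measures, which was not tested. By contrast, the 6 tested complex I genes had a median of 0.0058, with 3 positive and 3 negative. For mt-Co1 the controls had 15078, 13181, 14430 and 13679 CPM and the GFP-ZFP36L1 libraries 11391, 13334, 12561 and 12379. Library 4 lay above control 3, so the groups overlapped (log2 fold change -0.18 ± 0.09 SE, edgeR adjusted p = 0.331). mt-Cytb had 4009, 3529, 3878 and 3690 CPM against 3192, 3615, 3383 and 3453, again with an overlap through library 4. The values of mt-Co2 and mt-Atp6 were -0.17 ± 0.09 and -0.20 ± 0.11, and those of mt-Nd1 and mt-Nd2 were 0.04 ± 0.07 and 0.06 ± 0.07. The difference between these classes of mitochondrial genes was not tested.

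The make-up of the mitochondrial mRNA is given as the share of each gene in the counts of all 13. The mt-Nd1 share was 5.59%, 5.94%, 5.88% and 6.11% in controls and 6.46%, 6.41%, 6.70% and 6.67% in GFP-ZFP36L1 libraries. The mt-Nd2 share was 4.13%, 4.33%, 4.44% and 4.42% against 4.85%, 4.87%, 4.83% and 5.15%. In both genes every GFP-ZFP36L1 library lay above every control. The mt-Co1 share, the largest, was 34.7% ± 0.756 against 33.3% ± 1.07 (SD, n = 4 each) and overlapped. These shares sum to a fixed total, were singled out after their values were seen, and carry no test.

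Over the library as a whole, the 13 mitochondrial genes took 4.28%, 3.78%, 4.04% and 3.83% of the counts in controls and 3.54%, 4.03%, 3.85% and 3.79% in GFP-ZFP36L1 libraries. The 97 nuclear genes took 0.635%, 0.574%, 0.564% and 0.555% against 0.611%, 0.546%, 0.566% and 0.517%. Both ranges overlapped between the groups, and the log2 ratio of mitochondrial to nuclear counts was 2.77 ± 0.052 against 2.76 ± 0.163 (SD, n = 4 each). The widest 95% Wilson interval of a share spanned 0.0121 percentage points, so that the spread between libraries was far larger than counting error, which is all that the interval covers. Library 2 stood lowest in the ratio at 2.53, with the smallest mitochondrial share and the second largest nuclear share.

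**Figure D2:**
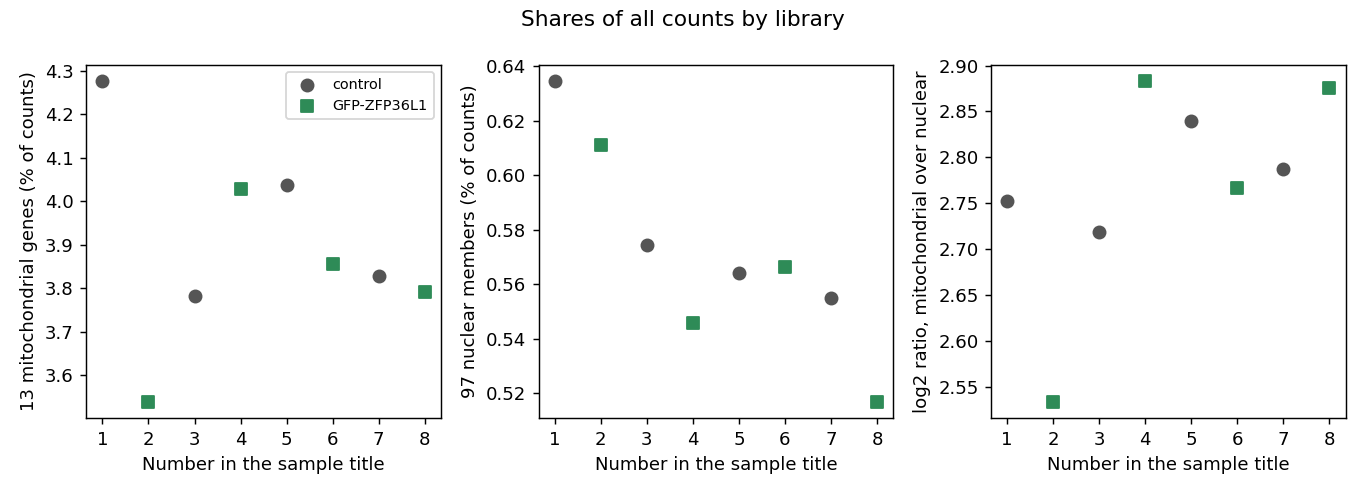
Share of all counts on the 13 mitochondrial genes (left, %), on the 97 nuclear members (middle, %) and the log2 ratio of the former to the latter (right), against the number in the sample title, 1 point a library (circles control, squares GFP-ZFP36L1). The nuclear share runs from 0.635% in library 1 to 0.517% in library 8, and library 2 is lowest for the mitochondrial share at 3.54%.

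A second comparison tested the change of each gene per title number, with the group as a covariate, so that libraries are compared within groups. This number is the only other label that differs between libraries, and a shift of the whole profile with it was known from earlier results of these data. Nuclear genes of oxidative phosphorylation fell with it: 58 of 91 were called falling and 0 rising in the quasi-likelihood test of edgeR after Benjamini-Hochberg adjustment, where 11.7% of all tested genes were called falling and 9.04% rising. The median slope was -0.044 log2 per title number, a fitted fold of 0.807 from number 1 to number 8, against 0.00064 over all tested genes. Slopes were negative in 85 of 91 genes. They were negative in 85 when fitted within the controls and in 82 within the GFP-ZFP36L1 libraries. Whether the slope differed between the groups was not tested.

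The count of falling nuclear genes was 37 without library 1, 31 without library 2 and 24 without library 8, and 25 with a trend in transcript length and GC content removed. Without library 8, 642 genes were called over the whole table, against 2709 with all libraries. With upper-quartile factors 1130 genes fell and 1562 rose over the whole table, where 1530 fell and 1179 rose with TMM factors, and 57 members were called.

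**Figure D3:**
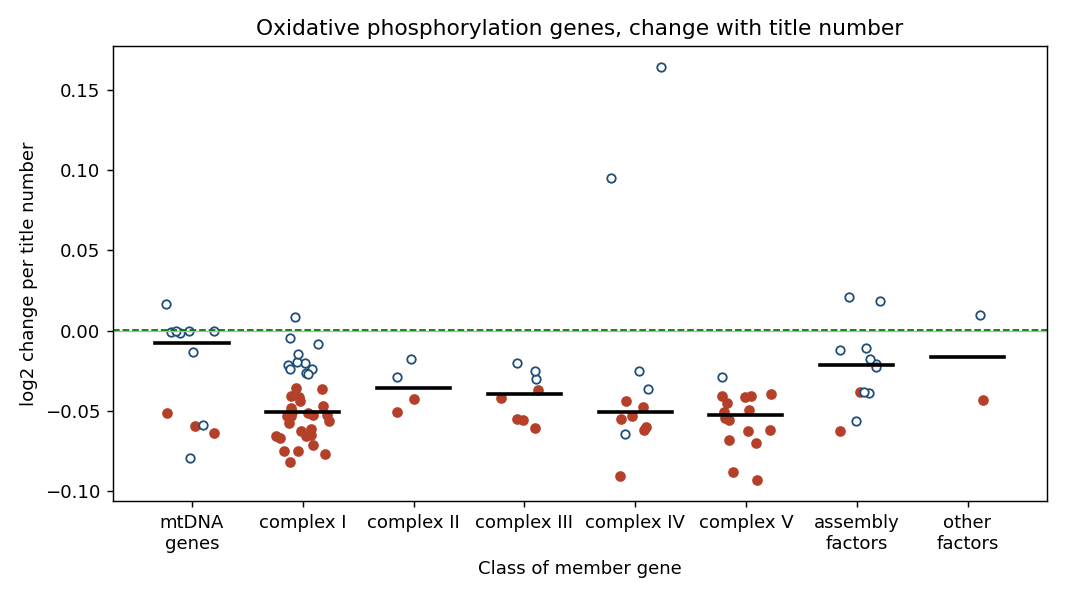
Fitted log2 change per title number (vertical axis) for the 103 tested genes by class, filled where the edgeR adjusted p was under 0.05 and open where it was not. Black bars are class medians and the dashed line is the median of all tested genes. Of 16 complex V subunits 15 are filled, and of 12 mitochondrial genes 3.

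ATP synthase subunits fell most uniformly, 15 of 16. Atp5mpl, a small proteolipid-like subunit, had 55.6, 48.9, 42.1 and 37.8 CPM in controls 1, 3, 5 and 7 and 47.8, 41.3, 40.8 and 32.7 CPM in GFP-ZFP36L1 libraries 2, 4, 6 and 8. Each group ran downward with the number, and the slope was -0.088 ± 0.011 (SE) with an edgeR adjusted p of 0.000667. Atp5l, the g subunit, had 65.0, 58.9, 45.8 and 49.0 CPM against 60.9, 53.5, 49.9 and 37.5. The lowest values were again at the high numbers (slope -0.093 ± 0.014). Atp5e, Atp5j2 and Atp5o fell with slopes of -0.068 ± 0.011, -0.070 ± 0.010 and -0.062 ± 0.010. The c subunit genes Atp5g1, Atp5g2 and Atp5g3 fell alike, at -0.051 ± 0.012, -0.055 ± 0.012 and -0.049 ± 0.010.

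In complex IV 7 of 12 subunits fell. Cox7a2 had 63.7, 54.3, 47.5 and 46.0 CPM in controls and 54.5, 45.6, 44.1 and 34.4 CPM in GFP-ZFP36L1 libraries, falling at every step of the number within each group. Its slope was -0.091 ± 0.011 (SE, edgeR adjusted p = 0.000667). Cox4i1, an early-assembling subunit, had 181, 157, 147 and 145 CPM against 164, 142, 144 and 118. Its slope was -0.062 ± 0.011. Cox8a and Cox5b were not called, with slopes of -0.037 ± 0.038 and -0.025 ± 0.015.

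Of 37 complex I subunits 26 fell, among them 3 of the 7 nuclear core subunits, which carry the redox centres, and 23 of the 30 others. Ndufa4 is counted here under complex I by its symbol, although its protein is now placed in complex IV. It had 89.1, 76.0, 69.4 and 66.2 CPM in controls and 79.1, 75.3, 67.7 and 56.7 CPM in GFP-ZFP36L1 libraries. Both groups ran downward (slope -0.075 ± 0.010 SE, edgeR adjusted p = 0.000752). Ndufa8, Ndufb9, Ndufs4 and Ndufa3 fell with slopes of -0.075 ± 0.013, -0.067 ± 0.012, -0.063 ± 0.011 and -0.058 ± 0.010. Ndufs1, which was lower in every GFP-ZFP36L1 library, had a slope of 0.0087 ± 0.0090. In complex III 5 of 8 fell, in complex II Sdhb and Sdhd, and among the 12 assembly factors Sdhaf2 and Sdhaf4.

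Short transcripts made up most of the falling genes. Of nuclear genes with a principal transcript under 700 nt 25 of 32 fell, of those of 700 to 1400 nt 25 of 31, and of longer ones 8 of 28, where 17.4%, 24.9% and 9.14% of all tested genes of those lengths fell. The median transcript of the 97 nuclear genes was 865 nt. The share of counts on cytosolic ribosomal proteins, whose transcripts are also short, ran from 7.996% in library 1 to 5.96% in library 8. With the trend in length and GC content removed, 25 of 91 nuclear genes were called falling, and 1177 genes over the whole table.

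**Figure D4:**
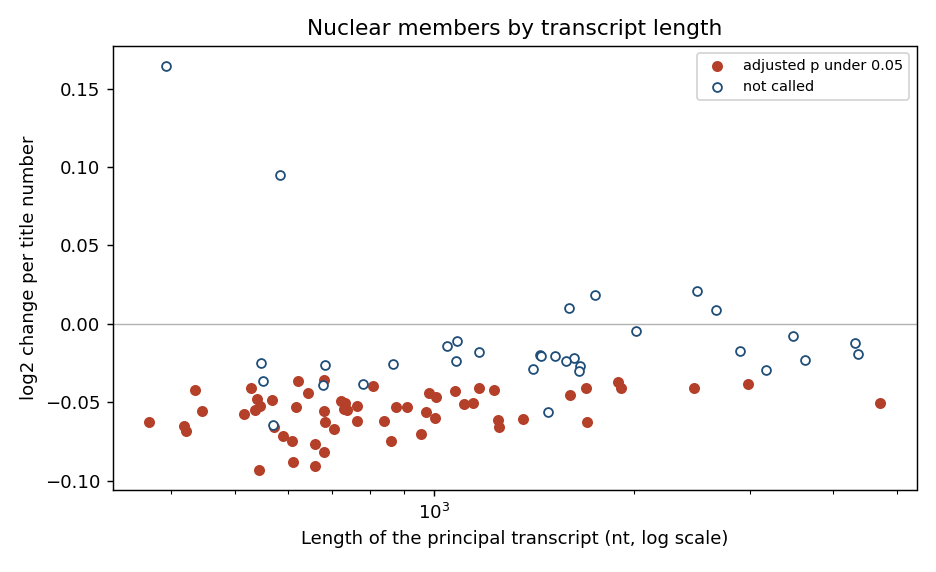
Fitted log2 change per title number (vertical axis) against the length of the principal transcript (horizontal axis, nt, log scale) for the 91 tested nuclear genes, filled where the edgeR adjusted p was under 0.05. Filled points number 25 of 32 under 700 nt and 8 of 28 above 1400 nt.

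Mitochondrial genes differed among themselves in this comparison. Those called were mt-Co3, mt-Atp6 and mt-Nd3, 3 of 12, with slopes of -0.064 ± 0.012, -0.059 ± 0.014 and -0.051 ± 0.011 (SE). mt-Co3, a core subunit of complex IV, had 6278, 5501, 5275 and 4699 CPM in controls and 5509, 5321, 4931 and 4246 CPM in GFP-ZFP36L1 libraries, downward in both. mt-Atp8 had a like slope of -0.059 ± 0.019 and an edgeR adjusted p of 0.0506. These 4 genes follow each other on mitochondrial DNA of GRCm38, from position 7766, where mt-Atp8 starts, to 9806, where mt-Nd3 ends, on the plus strand. The genes before and after them, mt-Co2 and mt-Nd4 (mt-Nd4l aside), had slopes of -0.014 ± 0.016 and -0.00050 ± 0.015. mt-Co1, mt-Cytb, mt-Nd1 and mt-Nd2 also had slopes within 1 SE of 0, and mt-Nd5 had 0.016 ± 0.013. Fitted within groups, 11 of the 12 mitochondrial slopes were negative in controls and 5 in GFP-ZFP36L1 libraries, with medians of -0.025 and 0.0075. For mt-Co1 the slopes within controls and within GFP-ZFP36L1 libraries were -0.015 and 0.014. A difference in slope between the groups was not tested. The weakly measured mt-Nd6 had -0.079 ± 0.034 and was not called. The position of the 4 genes was noticed after their values were seen, and a difference between neighbours was not tested. The count was 5 with DESeq2 or limma voom and 1 without library 8.

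**Figure D5:**
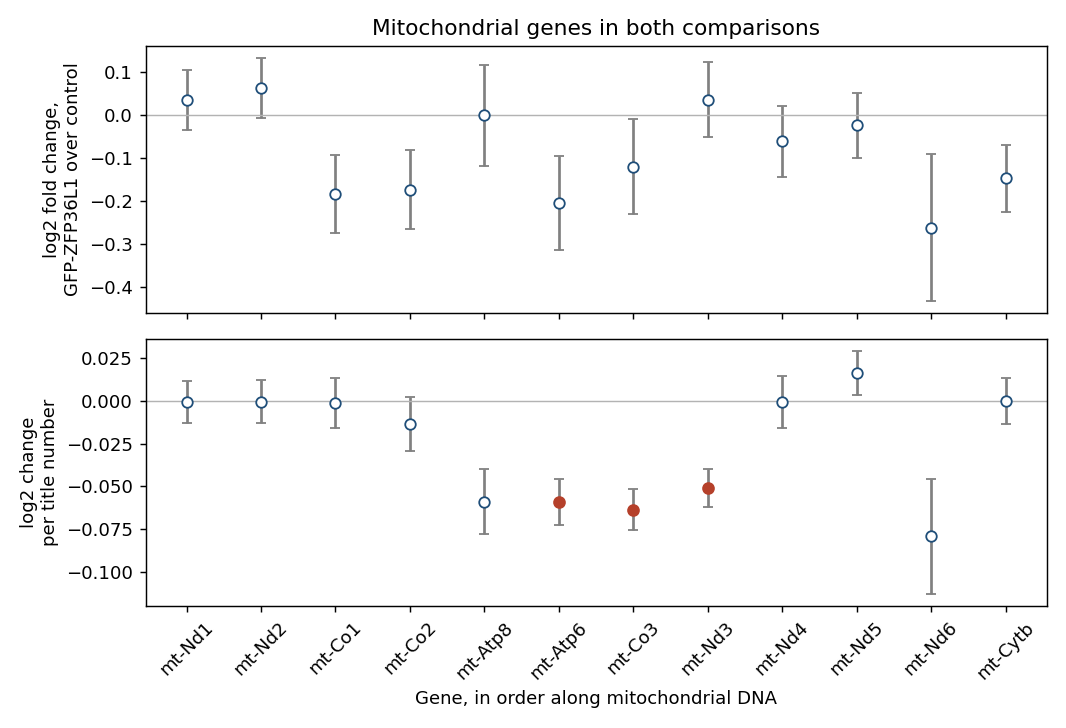
The 12 tested mitochondrial genes in their order along mitochondrial DNA, with the log2 fold change of GFP-ZFP36L1 over control (top) and the log2 change per title number (bottom). Points are estimates and bars are SE, and filled points have an edgeR adjusted p under 0.05: mt-Atp6, mt-Co3 and mt-Nd3, next to each other.

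The promoters of the tested nuclear members, whether falling or not, were searched for motifs of factors known to act on respiratory genes. Whether falling members differed from the others in these motifs was not tested. Windows of 250 bases before the start of the gene (RefSeq, GRCm38.p6) were found for 76 members, 81 windows in all. The NRF1 motif GCGCATGC, on either strand, was in 9 of 81 windows (11.1%), against 4.51% of windows of all tested genes and 2.26% of all windows. The ETS motif CCGGAAG, bound by factors such as GABP, was in 19.8%, 14.5% and 6.91%, and the YY1 motif AAGATGGC in 1.23%, 2.22% and 1.56%. No motif contains another. Matches in 3 of the genes that fell most clearly are shown, 5' to 3' on the gene's strand, with the motif or its reverse complement in capitals.
Atp5l, NRF1, chr9:44920964-44920992, minus strand: aaccaataacGCATGCGCatttcccccac
Atp5e, ETS, chr2:174464186-174464214, minus strand: tacggccacagCTTCCGGtagccgctcgg
Ndufa8, NRF1, chr2:36049339-36049357, minus strand: tcgctggagacGCATGCGC

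The start of Ndufa8 in RefSeq lies inside the gene as GENCODE draws it, so its match is upstream of the start by RefSeq only. A motif match describes the sequence and is not a measured binding site.

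Other genes of mitochondrial metabolism were described from lists. In the comparison of the groups, 1 of 19 genes of the citric acid cycle was called lower and 0 higher, where 1.30% of all tested genes were called lower: Fh1, fumarase, at 87.7 ± 4.57 against 71.6 ± 6.96 CPM (SD, n = 4 each), a log2 fold change of -0.29 ± 0.07 (SE, edgeR adjusted p = 0.0454). Among 27 tested carriers and electron donors 1 was called, Vdac2, an outer membrane channel, at 121 ± 6.50 against 98.6 ± 9.19 CPM (log2 fold change -0.30 ± 0.07, edgeR adjusted p = 0.0399). None of 76 tested mitochondrial ribosomal genes, 40 assembly factors outside the prefixes, 37 genes of mitochondrial gene expression, 15 regulators of biogenesis or 94 cytosolic ribosomal genes was called. With the title number, 26 of 76 mitochondrial and 79 of 94 cytosolic ribosomal genes fell, and 0 and 1 rose, where 11.7% of all tested genes fell and 9.04% rose. Of the assembly factors outside the prefixes 14 of 40 fell, and of the citric acid cycle genes 5 of 19. Among carriers and electron donors 5 of 27 fell, and among genes of mitochondrial gene expression 4 of 37 fell and 1 rose. Of the regulators of biogenesis 3 of 15 rose and 1 fell.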

How the data were processed

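Every test started from the raw counts that the authors deposited, whole numbers for 43629 genes. They also deposited a normalized signal per gene, which equals the count divided by 1 constant per library (largest relative departure 5.7e-10) and served only for this check. In the deposited comparison table, the authors' log2 fold changes and p-values were read to count their calls. Its test statistic, a score per gene, and its signed fold came from the authors and were not used. Per the submitters' processing notes, the build was GRCm38 and the tools included TopHat2 2.0.12, Trim Galore, DESeq2 1.10.1 and HTSeq. Whether HTSeq counted by strand was not given in the sources used here. All 8 columns were matched by sample title, and 0 entries named no gene.

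The tests were run with edgeR 4.0.16 in R 4.3.3 (filterByExpr, TMM, robust quasi-likelihood F test, Benjamini-Hochberg over 13035 genes, called under 0.05), for group alone and for title number with group as covariate. Limma 3.58.1, DESeq2 1.42.0 and sva 3.50.0 served alternatives, and blastn 2.17.0 found copies of at least 95% identity over 300 nt or 40% of a transcript. On simulated data with 200 changed genes among 13035, the group test recovered 72% of 1.5-fold and 91% of 2-fold changes, and the title number test 62% and 81%. Apart from Cox6b2, all tested members differed by less than 1.5-fold between the groups, and recovery of such smaller changes was not measured. Transcripts and 3' UTRs came from GENCODE on GRCm38, promoters from RefSeq. The members, lists and comparisons were chosen with earlier results of these data known. Named genes were the mitochondrial genes, called members (at most 12, by p), per class the smallest 2 p and the highest level per length, the isoform families, the Sdh subunits, and, per list, called genes with the smallest p; others are marked in the text as chosen after seeing values or illustrate a count.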

Additional observations from a re-analysis of the deposited data

Results flagged for a closer look

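The 4 values per group of each gene that the naming rule takes, and of the shares, were checked for a library far from the other 3 by Dixon's criterion, which chance meets in about 1 in 20 groups. The remaining members were not checked. Of 100 checks 3 met the criterion. Uqcrfs1 was at 51.8 CPM in control replicate 1 (title number 1), where the other controls were at 41.9 to 43.1. Atp5g1 was at 52.9 CPM in the same library, where the others were at 41.6 to 43.3. Sdhd was at 62.3 CPM in GFP-ZFP36L1 replicate 1 (title number 2), where the others were at 52.5 to 53.7.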

How the results depend on the processing

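No paired analysis was possible because the sample titles share no number between the 2 groups and no label pairs libraries. Of 955 values of named genes over the alternatives, 919 kept their direction and side of the threshold. Of the others 0 lost a call, 7 gained one and 29 changed sign. That 0 lost a call was largely set by the choice of genes and does not show that calls were stable. No member was called in the comparison of the groups, so none had a call to lose there. The genes named from the title number comparison were those with the smallest p. Over all nuclear genes, the number called falling with the title number went from 58 to 24 without library 8. In the comparison of the groups, 0 nuclear genes were called lower with all libraries, 2 with limma voom and 2 with the title number as a term, all of them subunits, and 0 to 4 with 1 library left out (also 0 to 4 subunits). Over all genes 407 were called, against 882 with DESeq2, 1053 with limma voom, 1030 with the title number, 618 with 1 surrogate variable, and 79 to 948 with 1 library left out.

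With the title number, 58 nuclear genes (55 subunits) fell, against 25 (24 subunits) with the length and GC trend removed and 24 to 61 (23 to 57 subunits) with 1 library left out. The median slope of nuclear genes was -0.025 with that trend removed (subunits also -0.025) and -0.054 to -0.039 with 1 library left out (subunits -0.056 to -0.044). For mitochondrial genes 3 fell, against 5 with DESeq2, 5 with limma voom and 1 to 4 with 1 library left out. Their median slope was 0.014 with the trend removed and -0.027 to 0.0067 with 1 library left out. The cause of these shifts was not tested. Over all genes 2709 were called, against 1999 with the length and GC trend removed and 642 to 2935 with 1 library left out.

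The sign changes were in uncalled values near 0 in the comparison of the groups. mt-Atp8 was at 0.00059 with DESeq2, 0.046 with limma voom, 0.00063 with RLE factors, 0.013 with upper-quartile factors, 0.0067 with a filter of 1 CPM in 4 libraries, 0.053 with the title number, 0.040 with a surrogate variable and 0.031 with the trend removed. Sdhd was at 0.0095 with upper-quartile factors, 0.0032 with the 1 CPM filter, 0.038 with the title number, 0.012 with a surrogate variable and 0.038 with the trend removed, and Atp5g3 at 0.020 with the trend removed. With 1 library left out the ranges were -0.080 to 0.084 for mt-Atp8, -0.0086 to 0.11 for mt-Nd3, -0.060 to 0.030 for mt-Nd5, -0.11 to 0.0039 for Cox7a2l, -0.10 to 0.023 for Atp5g3 and -0.060 to 0.038 for Sdhd. The medians of nuclear and mitochondrial genes in the comparison of the groups were -0.14 to -0.03 and -0.13 to -0.04 with 1 library left out. Depth limits Cox6b2 and Cox7a1, at under 2 CPM, and the 7 members that were not tested.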
